A study of Mus musculus with 9 samples.

Results

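The GIMAP genes encode the GTPases of immunity-associated proteins, and all 8 mouse members of the family examined here (Gimap1, Gimap3, Gimap4, Gimap5, Gimap6, Gimap7, Gimap8 and Gimap9) were taken by symbol from the 41978 genes of the deposited table, where each has 1 row. Values are in TPM, a gene's reads divided by its length and scaled to a fixed total in each sample. RNA-seq had been done on 9 samples of semi-mature CD4 single-positive (SP4) thymocytes, sorted as live CD25- CD69+ CD24+ CD4+ CD8- cells. Every sample came from mice carrying the Nur77-eGFP BAC transgene, in which GFP is driven by the regulatory region of Nr4a1 and so reports recent T cell receptor (TCR) signaling. The GFPlo, GFPmed and GFPhi groups are the lowest, middle and highest slices of GFP fluorescence within that gate, with 3 biological replicates each and the same number of sorted cells in every sample, and the labels name no treatment and no further allele. The study's methods give mice of both sexes, from juvenile to young adult age, on a C57BL/6 background, and no source used here says whether GFPlo, GFPmed and GFPhi samples with the same number came from 1 animal or how many animals were pooled.

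GIMAP proteins share a GTP-binding domain related to that of septins, and most are held on internal membranes such as those of mitochondria, lysosomes or the Golgi. They are expressed mainly in lymphocytes, rise as T cells mature, and are best known for keeping mature lymphocytes alive, since rodents that lack Gimap5 or Gimap1 lose peripheral T cells. The question put to the data here is how each member's RNA differs between thymocytes that report low, intermediate and high TCR signaling.

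The 8 genes lie in a single cluster of 124 kb on mouse chromosome 6 (GRCm38, GENCODE annotation). In order along the chromosome, Gimap8 (ENSMUSG00000064262.7) spans chr6:48647234-48660875, Gimap9 (ENSMUSG00000051124.6) chr6:48676129-48679114, Gimap4 (ENSMUSG00000054435.16) chr6:48684549-48692060 and Gimap6 (ENSMUSG00000047867.11) chr6:48701582-48708225. The second part of the cluster holds Gimap7 (ENSMUSG00000043931.10) at chr6:48718621-48724636, Gimap1 (ENSMUSG00000090019.5) at chr6:48739054-48743795, Gimap5 (ENSMUSG00000043505.8) at chr6:48746197-48754210 and Gimap3 (ENSMUSG00000039264.9) at chr6:48764464-48770851. Gimap6 and Gimap3 are on the minus strand and the others on the plus strand. Gimap1 shares 36.0% of its exonic bases with other annotated genes, chiefly 1107 bases with the antisense RNA Gimap1os, while Gimap5 and Gimap7 share 3.7% and 3.5% with the readthrough gene Gm28053 and the other members share none. The library kit keeps no strand, so where Gimap1 and Gimap1os overlap their reads cannot be told apart.

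The coding stretch of the GTP-binding loop, the motif that holds the phosphates of GTP, is printed to show how alike the members are. Each line gives the 24 coding bases, 5′ to 3′ on the gene's strand, and capitals mark bases that differ from Gimap3.
Gimap3: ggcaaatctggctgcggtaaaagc
Gimap5: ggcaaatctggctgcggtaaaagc
Gimap6: ggGaaaAcAggAAgcggGaaaagT
Gimap7: ggGaaaAcAggAAgTggAaaGagc
Gimap1: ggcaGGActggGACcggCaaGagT
Gimap4: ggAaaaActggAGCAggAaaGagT
Gimap9: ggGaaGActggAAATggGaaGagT
Gimap8, domain 1: ggGaaaCAGggcGCAggCaaaagT
Gimap8, domain 2: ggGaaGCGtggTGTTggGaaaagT
Gimap8, domain 3: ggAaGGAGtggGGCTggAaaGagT
Gimap3 (chr6:48765887-48765910) and Gimap5 (chr6:48752594-48752617) are identical over this stretch, whereas the remaining members differ from Gimap3 at 7 to 12 of the 24 bases. Gimap8 encodes 3 such loops in 688 codons and each of the other members encodes 1 in 291 to 328 codons. Over their whole coding sequences Gimap3 and Gimap5 are 88.9% identical across 899 aligned bases. Pairs with the 3-domain Gimap8 come to 67.2% to 73.3% of aligned bases. Its 2064 coding bases offer a shorter sequence more places to align, so these values are not comparable with the others. Among pairs without Gimap8 the next closest, Gimap6 and Gimap1, reaches 65.6% across 671 aligned bases. Of all 100-base words in the annotated transcripts, 1.65% of those of Gimap3 and 2.26% of those of Gimap5 occur in another gene, including 41 words that the pair shares with each other, so most reads of that length from either gene have 1 possible source.

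Promoter windows are shown for Gimap3, which rose most, and Gimap9, which fell. They come from RefSeq (GRCm38.p6) and hold up to 250 bases before the annotated start, 5′ to 3′ on the gene's strand, and all 8 members matched an entry, Gimap8 with 2 starts. Capitals mark matches on either strand to CACCC, bound by Krüppel-like factors, and GGAAA, the core bound by NFAT.
Gimap3 (chr6:48770852-48771101, minus strand): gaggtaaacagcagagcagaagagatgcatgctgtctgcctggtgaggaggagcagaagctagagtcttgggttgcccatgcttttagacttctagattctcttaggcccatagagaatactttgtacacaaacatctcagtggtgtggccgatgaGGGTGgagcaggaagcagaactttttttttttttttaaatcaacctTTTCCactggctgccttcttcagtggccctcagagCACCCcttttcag
Gimap9 (chr6:48675885-48676128, plus strand): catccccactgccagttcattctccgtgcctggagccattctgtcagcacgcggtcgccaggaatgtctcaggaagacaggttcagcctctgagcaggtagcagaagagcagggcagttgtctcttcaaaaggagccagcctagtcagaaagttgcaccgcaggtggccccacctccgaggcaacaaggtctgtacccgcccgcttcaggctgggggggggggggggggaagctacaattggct
The Gimap3 window held 2 CACCC matches, at 94 and 13 bases before the start, and 1 GGAAA match at 48 bases. Gimap9 held no GGAAA match, and its 1 CACCC match, 5 bases before the RefSeq start, lies past the end of the printed stretch. Over the 9 member windows CACCC was found in 6 and GGAAA in 7, against 52.0% and 55.6% of all 32851 windows of that length. The 2 Gimap8 windows overlap, and 1 CACCC site lies in both, so it counts for each of them. AAGGTCA, the site of NR4A monomers, was found in 0 of 9 member windows and 4.08% of all windows, and CCGGAAG, an ETS site, in 0 of 9 and 6.91%. None of the 4 motifs contains another, and these matches are descriptions of letters in the window only.

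The libraries held 7465982 to 14944519 reads assigned to genes, and counted members unequally, from 233 to 618 reads a sample for Gimap5 and 234 to 674 for Gimap7 up to 4881 to 12504 for Gimap4, so the first pair was the least precisely counted. SP4 markers were present throughout, with Cd4 at 582 ± 36.4 TPM in GFPlo and 474 ± 28.9 TPM in GFPhi (SD, n = 3), and 1 of 8 of them, Cd69, changed. Nr4a1, whose reporter set the gates, averaged 217 ± 32.1, 374 and 840 ± 75.0 TPM in GFPlo, GFPmed and GFPhi. Some markers of regulatory T cells, of double-positive or CD8 cells and of thymic epithelium moved with the groups. Their part in the GIMAP differences was not tested. The summed TPM of the regulatory T cell genes Foxp3 and Il2ra was 7.18 to 7.78 in GFPlo, 7.18 to 9.02 in GFPmed and 22.1 to 29.7 in GFPhi. That of the double-positive and CD8 genes Cd8a, Cd8b1, Rag1 and Rag2 was 41.4 to 42.7, 37.0 to 39.6 and 20.3 to 28.0. In that list Cd8a and Cd8b1 were lower in GFPhi than in GFPlo (log2 fold changes -1.12 and -0.79). Rag1 did not pass (-0.20, limma, adjusted p = 0.872). Rag2 was too low to be tested, at a mean of 0.229 TPM in GFPlo and 0.717 TPM in GFPhi. Endothelium also uses GIMAP genes, and its 6 markers summed to 28.9 to 37.3 TPM in GFPlo and 29.4 to 37.4 TPM in GFPhi, with 0 of 3 tested markers called. Of the tested markers of B cells, of dendritic and myeloid cells and of NK cells, 0 were called between GFPhi and GFPlo, and of 3 of thymic epithelium 1 was, Epcam, which averaged 2.79 TPM in GFPlo and 8.78 TPM in GFPhi. Olfactory and vomeronasal receptor genes, which thymocytes should not use, took 2155 to 4634 RPM (reads scaled to library size) and were highest in the library numbered 1 of each group, at a median of 1.38 TPM a gene.

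Mean RNA stepped up from GFPlo to GFPmed to GFPhi in 6 of the 8 members, by amounts that differed from member to member. Of these, 5 passed the test between GFPhi and GFPlo and Gimap6 did not. The TPM of all 8 members summed to 2526, 2594 and 2749 in the GFPlo samples, 3253, 3102 and 3197 in GFPmed and 3806, 4269 and 4000 in GFPhi, so the groups did not overlap. For Gimap3, Gimap1, Gimap7, Gimap5, Gimap4 and Gimap6, every GFPmed sample lay above every GFPlo sample and every GFPhi sample above every GFPmed sample. This stepwise order without overlap was shown by 1.67% of the 30693 genes tested. GFPhi lay wholly above GFPlo for the same 6 members, against 8.26% of genes tested, and wholly below it for 1 member, Gimap9, against 9.92%. These are bulk samples, in which fewer cells expressing a gene and less RNA per cell cannot be told apart.

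**Figure D1:**
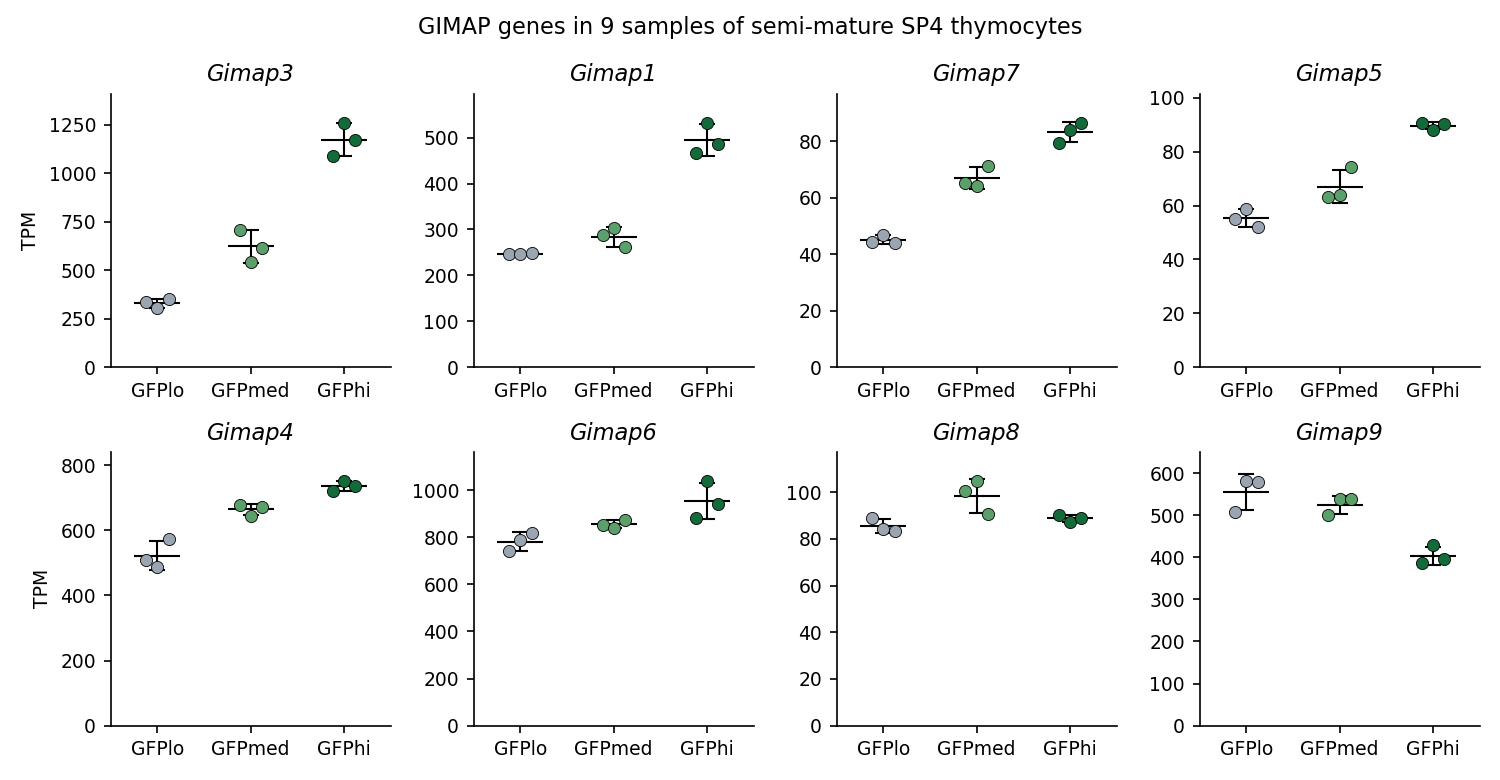
TPM (vertical axes, each from 0) of the 8 GIMAP genes in the 3 GFPlo, 3 GFPmed and 3 GFPhi samples, with 1 point a sample, the mean as a bar and the SD as whiskers. The steps are widest for Gimap3, which averages 330 TPM in GFPlo and 1174 TPM in GFPhi, while Gimap8 stays between 83.4 and 105 TPM in all samples and Gimap9 is lowest in GFPhi.

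Gimap3, a membrane-anchored protein described to bind members of the BCL2 family, was the member with the largest difference. It stood at 335, 303 and 350 TPM in the GFPlo samples, 709, 544 and 616 in GFPmed and 1090, 1261 and 1170 in GFPhi. The 3 groups were separate, and the lowest GFPhi sample was well above the highest GFPmed sample. Mean TPM in GFPhi was 3.56 times that in GFPlo, a log2 fold change of TPM + 1 of 1.83 ± 0.11 (SE; 95% interval 1.58 to 2.08; limma, adjusted p = 0.000155). The rise was split evenly over the 2 steps, at 0.91 from GFPlo to GFPmed (adjusted p = 0.0469) and 0.92 from GFPmed to GFPhi (adjusted p = 0.00711). The first of these calls is near the threshold. It was lost when any 1 of the 9 libraries was left out, with adjusted p from 0.0693 to 0.269 and the log2 fold change between 0.81 and 1.00.

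Gimap5, the nearest relative of Gimap3, is a lysosomal membrane protein needed for the survival of peripheral T cells. Its TPM was 55.0, 58.8 and 52.2 in GFPlo, 63.1, 63.9 and 74.3 in GFPmed and 90.8, 88.1 and 90.3 in GFPhi. The groups did not overlap, and the GFPhi samples were the most tightly grouped. GFPhi exceeded GFPlo by a log2 fold change of 0.69 ± 0.08 (SE; limma, adjusted p = 0.00409), while the steps of 0.27 to GFPmed and 0.42 from GFPmed to GFPhi did not pass (adjusted p = 0.781 and 0.0614).

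The related pair therefore rose by different amounts within the same samples. The log2 ratio of Gimap3 to Gimap5 (TPM + 1) was 2.59, 2.35 and 2.72 in GFPlo, 3.47, 3.07 and 3.04 in GFPmed and 3.57, 3.82 and 3.68 in GFPhi. Each group lay above the one before it, and the ratio was higher in GFPhi than in GFPlo by 1.14. Tested as a trend from GFPlo to GFPhi, it gave 0.00119 by exact permutation (two-sided, n = 3 a group), the smallest that rearranging 3 groups of 3 allows. A ratio within a sample does not depend on how libraries are scaled to each other, and it shows unequal change in the pair.

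Gimap1, a Golgi-associated member required for the development of mature T and B cells, came next in size. It was at 247, 246 and 250 TPM in GFPlo, 288, 302 and 261 in GFPmed and 466, 532 and 486 in GFPhi. GFPlo and GFPmed lay close together without overlapping, and most of the difference came between GFPmed and GFPhi. The log2 fold change was 0.99 ± 0.07 (SE) between GFPhi and GFPlo (limma, adjusted p = 0.000397) and 0.80 between GFPhi and GFPmed (adjusted p = 0.00256), against 0.19 between GFPmed and GFPlo (adjusted p = 0.972). The antisense RNA Gimap1os, with which Gimap1 shares exonic bases, was at 230 to 266 TPM in GFPlo and 287 to 301 TPM in GFPhi. Its log2 fold change of 0.24 did not pass the test (adjusted p = 0.101). The readthrough gene Gm28053 stayed between 0.922 and 2.34 TPM in the 9 samples.

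Gimap7 is a member whose dimers hydrolyse GTP and which can stimulate GTP hydrolysis by other members. It measured 44.3, 46.8 and 44.0 TPM in GFPlo, 65.1, 64.0 and 71.3 in GFPmed and 79.4, 83.9 and 86.4 in GFPhi, with no overlap. Here more of the rise fell in the first step. The log2 fold change was 0.56 between GFPmed and GFPlo (adjusted p = 0.0705), 0.31 between GFPhi and GFPmed (adjusted p = 0.0943) and 0.87 ± 0.07 (SE) between GFPhi and GFPlo (limma, adjusted p = 0.000671), so only the whole difference passed.

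Gimap4, which has been linked to T cell apoptosis, was at 508, 486 and 573 TPM in GFPlo, 678, 644 and 671 in GFPmed and 720, 751 and 738 in GFPhi. The GFPmed samples were nearer to GFPhi than to GFPlo. GFPhi exceeded GFPlo by a log2 fold change of 0.50 ± 0.07 (SE; limma, adjusted p = 0.00632), of which 0.35 lay between GFPlo and GFPmed (adjusted p = 0.273).

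Gimap6, a partner of the autophagy protein GABARAPL2, was at 740, 788 and 818 TPM in GFPlo, 851, 841 and 875 in GFPmed and 883, 1038 and 943 in GFPhi. The order of the groups was the same as in the members above, at a smaller step. The log2 fold change of 0.29 ± 0.07 (SE; 95% interval 0.13 to 0.44) did not pass the test across all genes (limma, adjusted p = 0.0733), and came to 0.34 with an adjusted p of 0.0495 without the GFPhi library numbered 1. Tested as solved reads with limma-voom it passed at nearly the same size, 0.30 (adjusted p = 0.000195), but not with median-of-ratios scaling of those reads (0.37, adjusted p = 0.411).

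Gimap8, the 3-domain member, is known for effects on the lifespan of peripheral B cells. Its TPM was 89.1, 84.1 and 83.4 in GFPlo, 100.5, 105 and 90.5 in GFPmed and 90.3, 87.1 and 89.0 in GFPhi. GFPhi and GFPlo overlapped, and the GFPmed samples were the highest, though no comparison passed. Between GFPhi and GFPlo the log2 fold change was 0.05, with a 95% interval from -0.11 to 0.22 (limma, adjusted p = 0.846).

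Gimap9 was the only member whose RNA was lower in GFPhi than in GFPlo in a comparison that passed. It was at 507, 580 and 579 TPM in GFPlo, 499, 537 and 537 in GFPmed and 387, 428 and 397 in GFPhi. GFPlo and GFPmed overlapped and GFPhi lay below both. The log2 fold change was -0.46 ± 0.07 (SE; limma, adjusted p = 0.0134) between GFPhi and GFPlo, -0.38 between GFPhi and GFPmed (adjusted p = 0.0542) and -0.08 between GFPmed and GFPlo. The call between GFPhi and GFPlo was lost without the GFPlo library numbered 2 (adjusted p = 0.0638), the GFPlo library numbered 3 (0.0584) or the GFPhi library numbered 3 (0.0619), at a log2 fold change of -0.44 to -0.42.

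**Figure D2:**
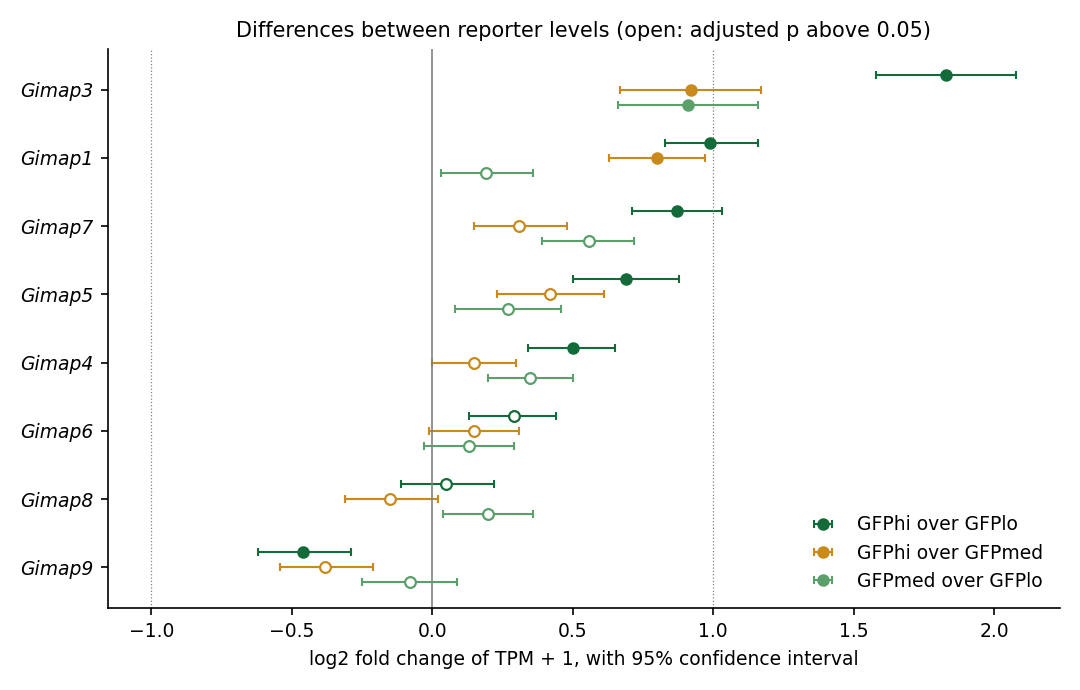
Log2 fold changes of TPM + 1 (horizontal axis) of the 8 GIMAP genes between the groups, with 95% confidence intervals from the limma fit; filled points have an adjusted p of at most 0.05 and dotted lines mark a log2 fold change of 1 in either direction. Gimap3 reaches 1.83 between GFPhi and GFPlo in nearly equal steps, Gimap1 takes most of its difference between GFPmed and GFPhi, and Gimap9 lies below 0.

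Between GFPhi and GFPlo, 5 of the 8 members were higher at an adjusted p of at most 0.05, where 2.38% of genes tested were, and 1 was lower, where 1.51% were. With the study's added limit, a log2 fold change of 1 or more in either direction, 1 member passed (Gimap3), against 1.66% of genes tested. Gimap1, at 0.99, sat just under that limit and passed it, at 1.04, 1.01 and 1.00, without the GFPhi library numbered 1, the GFPhi library numbered 3 or the GFPlo library numbered 3. The calls of Gimap3, Gimap1 and Gimap7 held under every alternative run, while those of Gimap4, Gimap5 and Gimap9 were lost with median-of-ratios scaling (adjusted p = 0.231, 0.0676 and 0.606) and without the 3 libraries numbered 1 (0.132, 0.0992 and 0.0619). A prior without the trend also ended those of Gimap4 (0.0722) and Gimap9 (0.103), and fitting only the 2 groups that of Gimap9 (0.0649), at unchanged log2 fold changes. The median log2 fold change of the members was 0.59, and that of all genes tested was -0.09.

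Between GFPmed and GFPlo, 1 member (Gimap3) was higher by adjusted p alone, against 0.0717% of genes tested, and 0 members met the fold limit as well, against 0.0586%. Between GFPhi and GFPmed, 2 members (Gimap3 and Gimap1) were higher, against 0.899% of genes tested, and 0 met the fold limit, against 0.691%. Gimap3 met it there, at 1.02, without the GFPmed library numbered 1, and both calls by adjusted p were lost with median-of-ratios scaling (0.112 for Gimap3 and 0.133 for Gimap1) and without the 3 libraries numbered 1 (0.0741 and 0.0950). The 3 comparisons share samples and are not independent of each other.

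The exact permutation test of a trend over GFPlo, GFPmed and GFPhi gave p = 0.00119 for each of the 6 members without overlap above (two-sided, n = 3 a group), the smallest value this design allows and one that 1.67% of genes tested reached in that direction, p = 0.00357 for the fall of Gimap9 and p = 0.582 for Gimap8. A trend p of at most 0.05 in either direction was found for 7 of the 8 members and 15.0% of genes tested. These 8 tests are not adjusted, and the members were chosen with earlier results of these data known, which limits how these p-values can be read. The part of the log2 difference between GFPhi and GFPlo that was already present in GFPmed was 0.174 of the whole for Gimap9 and 0.195 for Gimap1, then 0.393 for Gimap5, 0.458 for Gimap6, 0.498 for Gimap3, 0.639 for Gimap7 and 0.703 for Gimap4. For Gimap8 it came to 3.72, since GFPmed lay above both other groups and the whole difference was small. The test of whether the second step differed from the first passed for 0 of 8 members and 0.0195% of genes tested (limma, adjusted p). Gimap1 came nearest, with a second step larger by 0.61 (limma, unadjusted p = 0.00137, adjusted p = 0.450).

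Since the deposited TPM divides by a length that includes introns, levels of different genes were compared as RPKM on the exonic length (reads per exonic kilobase, scaled to library size). On that scale the members kept different proportions in the 3 groups. Gimap3 supplied 11.1% ± 0.562 of the summed RPKM of the family in GFPlo, 16.8% ± 1.77 in GFPmed and 25.8% ± 0.650 in GFPhi (SD, n = 3). Gimap9 went the other way, from 13.8% ± 0.955 to 10.5% ± 0.690 and 6.55% ± 0.0830.

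By RPKM Gimap4 was highest in every group, at 361 ± 29.9 in GFPlo, 456 ± 14.4 in GFPmed and 514 ± 9.85 in GFPhi, and Gimap5 was lowest, at 7.46 ± 0.460, 9.0 ± 1.02 and 12.2 ± 0.663. In GFPlo the order between them was Gimap6 (189 ± 8.76), Gimap9 (122 ± 8.88), Gimap3 (98.1 ± 6.88), Gimap8 (52.0 ± 2.05), Gimap1 (42.6 ± 0.192) and Gimap7 (13.5 ± 0.478), and no neighbors in that order overlapped. In GFPmed Gimap6 (206 ± 8.05) and Gimap3 (184 ± 22.4) overlapped, the highest Gimap3 sample reaching 206. In GFPhi Gimap3 (353 ± 12.2) lay above Gimap6 (233 ± 9.89), and Gimap9 (89.6 ± 1.38) and Gimap1 (85.9 ± 2.55) overlapped. Gimap3 thus moved from the fourth place to the second, and Gimap5, its nearest relative in sequence, stayed at the bottom. The place of Gimap1 beside Gimap8 and Gimap9 is not firm. Its RPKM divides by all its exonic bases, of which 36.0% are shared with other annotated genes. How reads over those bases were counted is not given.

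**Figure D3:**
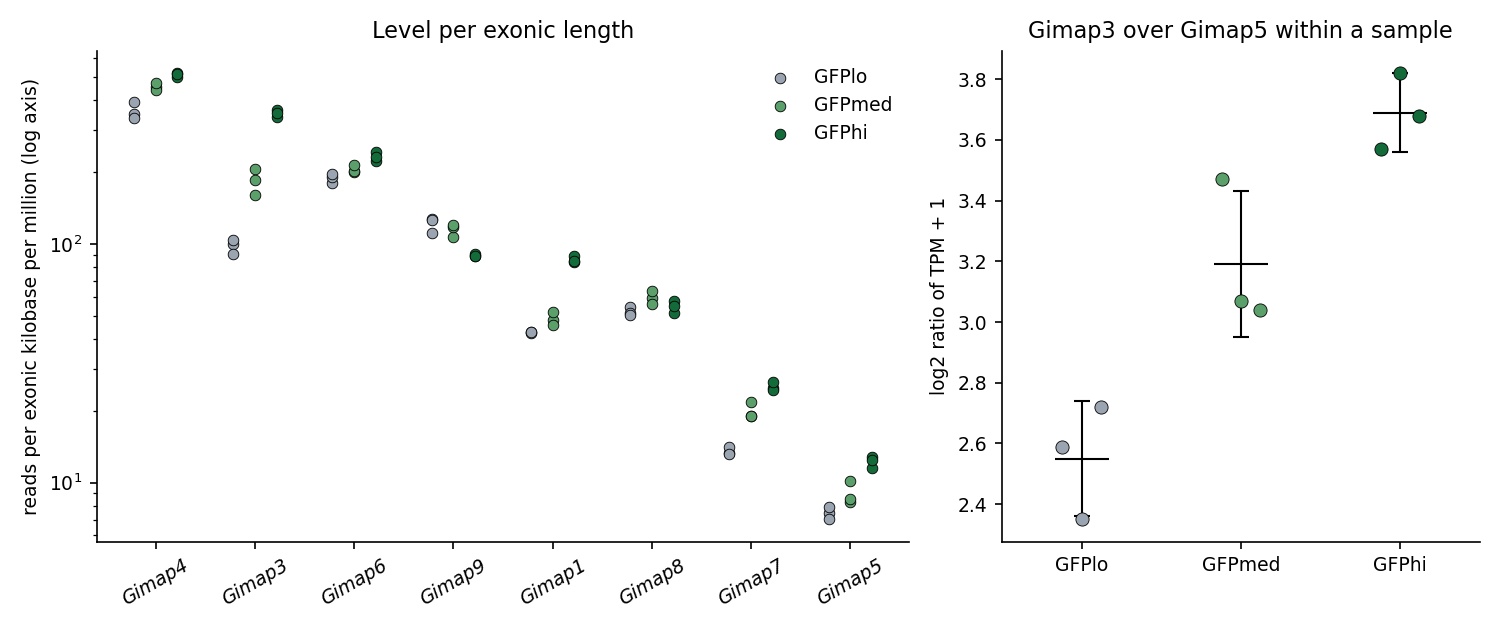
Left, RPKM on the exonic length (log axis) of the 8 GIMAP genes in each sample, colored by group, with genes ordered by their mean; right, the log2 ratio of Gimap3 to Gimap5 (TPM + 1) within each sample, with mean and SD. Gimap3 passes Gimap6 in GFPhi, at 353 against 233, and the ratio averages 2.55 in GFPlo, 3.19 in GFPmed and 3.69 in GFPhi.

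Across the 9 samples, Pearson's r between the log2 levels of Gimap1, Gimap3, Gimap4, Gimap5, Gimap6 and Gimap7 lay between 0.80 and 0.97 over 15 pairs, a description in which the samples share their groups. After the group means were removed, r over all 28 pairs of members ran from -0.75 to 0.80 with a median of 0.06. Of 7662 named genes with a mean of at least 10 TPM, those with the pattern most like Gimap3 over the 9 samples were Itgb7 (r = 0.993), the MHC class I gene H2-K1 (r = 0.992) and Shisa5 (r = 0.991). The member most like Gimap3, Gimap7 (r = 0.966), ranked 103 among these genes, so high values of r were not particular to the family. Itgb7, an integrin chain, averaged 132 TPM in GFPlo and 307 TPM in GFPhi. The genes most like Gimap5 were Styx (r = 0.985), Chchd10 (r = 0.979) and Lad1 (r = 0.976). These genes moved by more than Gimap5, with log2 fold changes between GFPhi and GFPlo of 1.66, 3.78 and 6.55.

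The difference between GFPhi and GFPlo was larger toward the Gimap3 end of the cluster. From Gimap8 to Gimap3 along the chromosome, log2 fold changes between GFPhi and GFPlo were 0.05, -0.46, 0.50, 0.29, 0.87, 0.99, 0.69 and 1.83, and Spearman's rho between order and log2 fold change over the 8 genes was 0.88. This is a description of 8 adjacent genes in the same 9 libraries, and no test was made of it. Of the other genes annotated within 500 kb of the cluster, 40 passed the filter on low values, and 0 were higher and 2 were lower in GFPhi, with a median log2 fold change of -0.09. Of these, 36 lie on either side of the cluster (median -0.09) and 4 between its members (median -0.12). The 2 that fell were Gpnmb, a membrane glycoprotein gene, at -1.43 (limma, adjusted p = 0.0138) and Zfp467, a zinc finger gene, at -0.76 (adjusted p = 0.00801). Of the neighbors closest to Gimap3, Tmem176b was at -0.63 and Tmem176a at -0.89, and neither passed (adjusted p = 0.0833 and 0.0877).

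**Figure D4:**
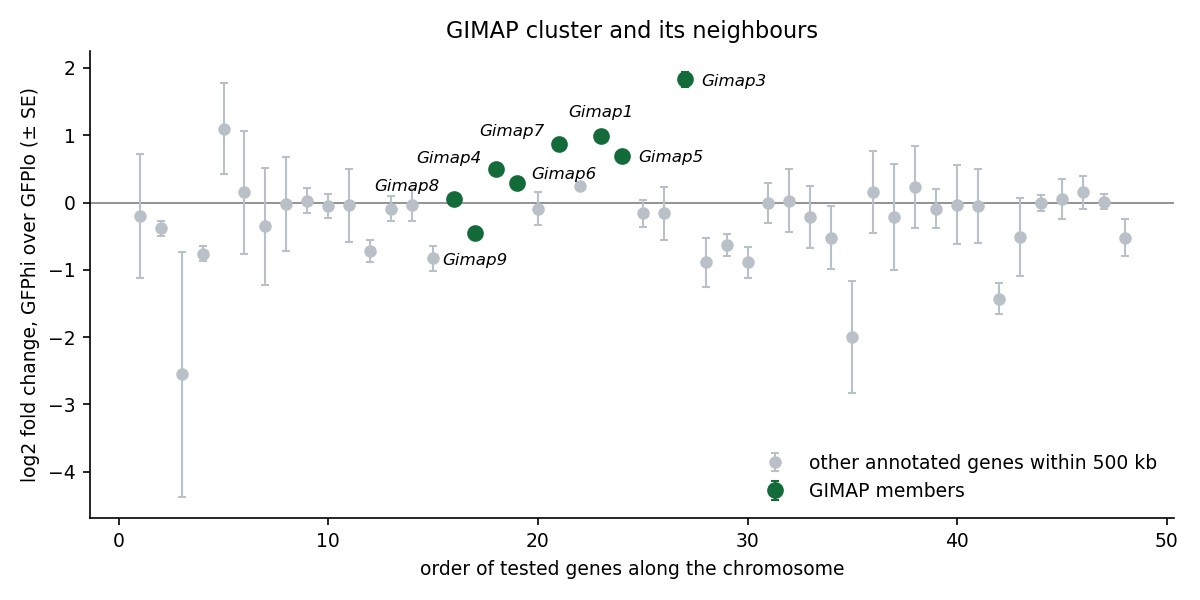
Log2 fold change of TPM + 1 between GFPhi and GFPlo with its SE (vertical axis) for the 8 GIMAP genes and the 40 other tested genes within 500 kb, in their order along the chromosome (horizontal axis, rank only). The members run from -0.46 to 1.83 with the higher values toward Gimap3, and the 36 genes on either side have a median of -0.09.

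Genes of the pathways around the GIMAP proteins are given by list for comparison. In the BCL2 family, to which Gimap3 and Gimap5 are linked, 2 of 11 genes were higher and 1 lower between GFPhi and GFPlo. Bcl2l11, which encodes the proapoptotic protein BIM, rose from 15.5 ± 1.36 to 135 ± 18.3 TPM (log2 fold change 3.04; limma, adjusted p = 3.16e-05). Bcl2, which encodes a survival factor, fell from 60.8 ± 5.39 to 23.7 ± 3.63 TPM (log2 fold change -1.33, adjusted p = 0.00107), and Bcl2a1b rose from 0.352 to 2.01 TPM (adjusted p = 0.0268). In the autophagy machinery around Gimap6, 1 of 13 genes changed. That gene was Gabarap, which was higher by 0.74 (adjusted p = 0.00686), while Gabarapl2, the described partner of GIMAP6, was at -0.07 (adjusted p = 0.827). Of 6 genes of the GSK3 and beta-catenin pathway, to which Gimap5 has been tied, Nfatc1 was higher by 0.70 (adjusted p = 0.0202) and the other 5 did not pass.

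Of 10 genes of thymocyte maturation and egress, 8 were higher and 1 lower in GFPhi at a median log2 fold change of 0.93. S1pr1, the receptor that guides thymocytes out of the thymus, rose by 4.70 (limma, adjusted p = 9.95e-06) and Klf2, its activator, by 2.60 (adjusted p = 5.35e-05). Il7r, the receptor for the survival cytokine IL-7, fell by 1.81 on the log2 scale (adjusted p = 6.49e-05). Of 8 tested genes of immature thymocytes, 0 were higher and 4 lower at a median of -0.66, among them Ccr9 at -2.35 and Dntt, the terminal transferase, at -1.43. The members' median of 0.59 lay between the medians of these lists, as did that of all genes tested, at -0.09. Of 10 genes induced by TCR signaling, 6 were higher and 3 lower. Tnfrsf9 (4-1BB) was the furthest, with a log2 fold change of 5.96, followed by Nr4a3 at 1.97 and the reporter's own gene Nr4a1 at 1.95, beside 1.83 for Gimap3. The 3 that fell were the immediate-early genes Egr1, at -0.76 (limma, adjusted p = 0.000544), and Egr2, at -0.90 (adjusted p = 0.00129), and the activation marker gene Cd69, at -0.79 (adjusted p = 0.0142), so the list did not move one way.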

How the data were processed

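RNA-seq values of 9 samples of sorted SP4 thymocytes were taken from 1 deposited table. Per the study's methods, the authors made the libraries with SMART-seq v4 and Nextera XT, trimmed the reads, aligned them to GRCm38/mm10 with STAR 2.7.11b, dropped identical copies, took counts per gene and computed TPM. The deposited table holds TPM per sample and, as a signal per group, the authors' mean of counts normalized with DESeq2 1.34.0, which served only to solve reads. Its columns of the authors' fold changes, p-values and calls were not used. The strand setting of the counting is not given in the sources used here.

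The deposited TPM of each gene, multiplied by the mean genomic span of its transcripts, came out as whole reads (tolerance 0.01) for 100.0% of 41056 annotated genes. The length behind the TPM thus includes introns, which leaves a gene's comparison between samples intact and alters comparisons between genes. Reads were solved for 41950 of 41978 genes, at 7465982 to 14944519 a sample, and gave RPKM on the exonic length. The limma model (limma 3.58.1, R 4.3.3) was fitted to log2(TPM + 1) of all 9 samples with a mean per group, over 30693 genes with at least 1 TPM in at least 3 samples, with a trended prior and Benjamini-Hochberg adjustment over all of them. Fold changes on this scale understate those of low genes. A called gene has an adjusted p of at most 0.05, with or without a log2 fold change of 1 or more in either direction. Trends and the Gimap3 to Gimap5 ratio were tested by exact permutation over samples. The fit was tested on simulated data with 200 of 30411 genes changed 4-fold between GFPhi and GFPlo, of which 178 were recovered past both limits, beside 18 unchanged genes called, and 8 genes were called when none was changed. The limma p-values set differences between groups against the spread between samples within them, and the permutation p-values count rearrangements of the samples.

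The text names the 8 members in full, up to 3 genes with the largest differences of each list, those that fell among the TCR signal genes, added after their values were seen, and the 3 genes most like Gimap3, the member past both limits in a comparison, and Gimap5. The members and lists were chosen with earlier results of these data known. Promoters came from RefSeq (GRCm38.p6), transcripts from GENCODE, and coding sequences were aligned with Biopython 1.88. Alternatives were another pseudocount, filter, scaling, prior, sample set and replicate block, limma-voom on solved reads, and leaving out samples. The voom fit with median-of-ratios scaling and the fit without the libraries numbered 1 were added after the data were seen.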

Additional observations from a re-analysis of the deposited data

How the results depend on the processing

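No member reversed direction under any alternative. The count of members past both limits between GFPhi and GFPlo, 1, came to 2 with median-of-ratios scaling, limma-voom under either scaling and without the 3 libraries numbered 1, Gimap1 joining in each case, ran from 1 to 2 when single libraries were left out, and was 6 with no limit on the fold change. Between GFPmed and GFPlo, 0 became 1 with no fold limit. Between GFPhi and GFPmed, 0 became 2 with no fold limit and ran from 0 to 1 with single libraries left out. Of single members' values under the alternatives, 145, 141 and 147 of 160 stayed on the same side of the threshold for GFPhi against GFPlo, GFPmed against GFPlo and GFPhi against GFPmed. Gimap3, Gimap1 and Gimap7 passed between GFPhi and GFPlo in all 20 alternatives, with highest adjusted p of 0.0179, 0.0357 and 0.0413. Median-of-ratios scaling ended the calls of Gimap4 (adjusted p = 0.231), Gimap5 (0.0676) and Gimap9 (0.606) there, and those of Gimap3 (0.112) and Gimap1 (0.133) between GFPhi and GFPmed, and left 5 of 7 members with a trend p of at most 0.05, Gimap9 at 0.0929 and Gimap6 at 0.0726. Without the libraries numbered 1, Gimap4 (0.132), Gimap5 (0.0992) and Gimap9 (0.0619) did not pass. A prior without the trend ended the calls of Gimap4 (0.0722) and Gimap9 (0.103), and fitting only the 2 groups that of Gimap9 (0.0649). Limma-voom on solved reads called Gimap6 (0.000195), though not with median-of-ratios scaling (0.411). The causes were not tested. The ratio of highest to lowest mean level, 13.3 by TPM (Gimap6 over Gimap7), was 46.4 per exonic kilobase (Gimap4 over Gimap5). The rise in the Gimap3 to Gimap5 log2 ratio ran from 1.04 to 1.23 with single libraries left out.

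Samples with the same replicate number deviated from their group means with a mean correlation of 0.0609 (9 pairs, 0.0122 to 0.225), against -0.0305 for other pairs. Deviations cancel within a group, so the value for other pairs follows largely from that for same-numbered pairs. These values do not decide whether the numbers mark pairs, and the main fit left the samples unpaired. With the replicate number as a block the count between GFPhi and GFPlo stayed at 1, that between the other groups at 0, and 7 members kept a trend p of at most 0.05. The block moved the call of Gimap3 between GFPmed and GFPlo to an adjusted p of 0.227 and that of Gimap9 between GFPhi and GFPmed to 0.0381.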

Other observations

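The genes most like Gimap9 over the 9 samples, looked up after its values were seen, were Srsf6 (Pearson's r = 0.991), a splicing factor, the glycolytic enzyme gene Aldoa (r = 0.991) and Chmp1b (r = 0.989), a subunit of the membrane-cutting ESCRT-III complex. Between GFPhi and GFPlo their log2 fold changes were -0.42, -0.73 and -0.92 (limma, adjusted p = 0.0255, 0.00211 and 0.00242), so all 3 were lower in GFPhi. Srsf6 went from a mean of 451 TPM in GFPlo to 337 TPM in GFPhi.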
